A study of Mus musculus with 46 samples.

Results

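The cytosolic ribosomal protein genes were followed here across 7 types of GABAergic neuron from mouse frontal cortex, 1 cell at a time. Members were all genes whose symbol begins with Rpl or Rps and a digit, with Rplp0, Rplp1, Rplp2 and Rpsa, and with at least 50 counts in all. Of 101 matching symbols, 5 pseudogene symbols and 10 genes of the Rps6k kinases were left out, and 1 of the 86 remaining, Rpl10l, had no count. The 85 members, of 23335 genes in the table, comprised 46 proteins of the large subunit, 31 of the small subunit, 7 paralogs (Rpl3l, Rpl7l1, Rpl22l1, Rpl36al, Rpl39l, Rps4y2 and Rps27l) and Rps19bp1. By its name Rps19bp1 is a binding protein of Rps19 and no ribosomal protein, so the symbol rule takes in 1 gene that its label does not cover. The members held 3.30% of all counts.

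Each ribosome in the cytosol joins a small subunit, which reads the messenger RNA, to a large subunit, which forms the peptide bonds. Nearly every one of their proteins is present once in a ribosome, so cells make them in balanced amounts. Most of their messages begin with an uninterrupted stretch of C and T, the terminal oligopyrimidine tract, through which mTOR signalling sets how strongly they are translated. A few paralogs can take the place of the usual protein in some tissues.

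The study sampled 584 hand-isolated red-fluorescent neurons in 46 libraries, each holding 7 to 16 cells of 1 labelled animal. Martinotti cells (Sst-Flp; CR-Cre; Ai65, layer 2/3, female, postnatal day 35, 62 cells of animals 1 and 2) and interneuron-selective cells (Vip-Flp; CR-Cre; Ai65, layer 2/3, female, day 32, 63 cells of animals 3 and 4) shared a flow cell. CCK basket cells (Vip-Flp; CCK-Cre; Ai65, layer 2+3, male, days 39 to 40, 64 cells of animals 5 and 6) and PV basket cells (Pv-iresCre; Ai14, all layers, both sexes, days 58 to 83, 127 cells of animals 7 to 10) each had a flow cell of their own. Deep chandelier cells (Nkx2.1-CreER; Ai14, layers 5 and 6, male, day 34, 52 cells of animals 11 and 12) were alone on theirs. Upper chandelier cells (Nkx2.1-CreER; Ai14, with 1 library labelled Ai15, at the border of layer 1 in the infralimbic and prelimbic areas, female, days 40 to 58, 80 cells of animals 13 and 14) shared the last flow cell with long-projecting cells (Sst-Flp; Nos1-Cre; Ai65, male, days 28 to 29, 136 cells of animals 15 to 18). Every cell carried a recombinase and a reporter allele and no group went without them. Tamoxifen on embryonic day 17.5 induced the Nkx2.1-CreER mice. The labels call the mice or brains WT in every group, and for animal 14 they give day 58 in 1 library and day 40 in 2 others, so it may not be 1 animal. It was counted as 1 replicate. Each type is what its driver or driver pair marks where it was sampled. Type, driver, sex, age and, outside the shared flow cells, sequencing run therefore cannot be told apart.

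The deposited values are counts per gene and cell, and were summed over the cells of an animal. Library totals ran from 530927 to 4568242 counts. Of 190 pairs of libraries of a type, 8 pairs of PV basket libraries, each of 1 male and 1 female animal, agreed to within 1.22 to 1.72 times the sampling noise, while other PV pairs differed by at least 8.28 times. Animals 7 and 8, and animals 9 and 10, were therefore each counted as 1 sample, which left 16 replicates: 4 for long-projecting cells and 2 for every other type. Gad1, Gad2 and Slc32a1, which mark GABAergic neurons, summed to between 1485 and 6339 CPM (counts scaled to a library total of 1000000) in every library. The 8 oligodendrocyte markers summed to 3008 CPM in interneuron-selective library 3 and to 4331 CPM in long-projecting library 2, against at most 259 CPM in the others. Vip, a gene of other interneurons, reached 1918 CPM in deep chandelier library 4 and 374 CPM in upper chandelier library 1. Results are given without these 4 libraries where a count of members called fell or a share of counts moved by more than its SD. They are also given where 1 of 34 named differences lost its call. The same 16 cell barcodes recur between libraries and none repeats within a library, and doublets were not called. Within a library, the spread of member counts between cells was 0.945 to 1.38 times the counting error (median 1.07), while between libraries of a type it was 18.2 to 132 times, so animals and not cells were the replicates.

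The first bases of a few members are printed to show the feature by which the family is best known. RefSeq start sites (GRCm38.p6) were found for 64 members. Each line gives the 15 bases on either side of the start, 5′ to 3′ on the transcribed strand, with the longest uninterrupted run of C and T in capitals. Of the members with results below, Rpl7a (chr2:26910792-26910821, plus strand), Rpl35 (chr2:39005117-39005146, minus strand), Rpl13a (chr7:45128731-45128760, minus strand) and Rpl22l1 (chr3:28805493-28805522, plus strand) had long runs, of 21, 18, 13 and 10 bases.
Rpl7a: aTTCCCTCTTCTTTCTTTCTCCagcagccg
Rpl35: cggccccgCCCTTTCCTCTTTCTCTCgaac
Rpl13a: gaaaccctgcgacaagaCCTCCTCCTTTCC
Rpl22l1: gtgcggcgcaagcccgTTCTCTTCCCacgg
Rpl5 (chr5:107900513-107900542, plus strand), Rpl10 (chrX:74270801-74270830, plus strand), the paralog Rpl7l1 (chr17:46782642-46782671, minus strand) and Rps19bp1 (chr15:80264292-80264321, minus strand) had runs of 4, 3, 2 and 3 bases at their listed starts.
Rpl5: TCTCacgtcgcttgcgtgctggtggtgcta
Rpl10: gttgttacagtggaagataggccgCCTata
Rpl7l1: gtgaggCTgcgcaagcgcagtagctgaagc
Rps19bp1: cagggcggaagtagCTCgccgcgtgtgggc
A run of at least 8 pyrimidines stood in this window in 27 of the 64 members (42.2%) and in 13.9% of 27025 genes. A run of at least 10 was found in 20 members and in 6.25% of genes. The median longest run was 7 bases in members and 5 in all genes. The length of the run was unrelated to how a member differed between types: over the 62 members tested, Spearman's rho with the log2 fold change was -0.10 in deep chandelier cells and 0.08 in long-projecting cells. These are descriptions across genes, which are not independent, and a short run says only that these letters are not in this window.

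Ribosomal protein genes have many processed pseudogenes, so reads of one gene can also match a copy elsewhere. The last 300 bases of each member's transcript, near which the reads of a polyA-based library lie, were compared with all other GENCODE M21 transcripts in words of 31 bases. Of 84 members matched there, 70 shared at least 1 word with another gene, 54 shared over 50% of their words, and 14 shared none. Among members described below, Rpl10, Rpl36a and Rps27 shared all of these words, Rpl35 96.7%, Rpl29 87.4%, Rpl7a 85.2%, Rps3a 81.9%, Rpl3 80.0%, Rpl7 75.9%, Rpl22l1 65.9% and Rps29 52.2%. Rpl13a, Rps24, Rpl5, Rpl7l1 and Rplp0 shared none. A count of a sharing member is therefore uncertain as to its locus, because the sources used here do not say how the deposited counting assigned such reads. The share of words had a rho of 0.04 with the log2 fold change in deep chandelier cells and of -0.02 in long-projecting cells.

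Non-whole counts, as arise where a read is divided between genes, were few among members. They made up 0.508% of member counts and 4.71% of all counts, and 81 members had whole counts only. The exceptions were Rpl38 (47.1% of its counts in non-whole values), Rpl3l (31.7%), Rpl34 (2.88%) and Rpl19 (0.979%). Rpl26 and Rpl30 had the same value in every cell as the pseudogene rows Gm15772 and Gm12191. Rps27 had the same value in every cell as the row Gm9846, so the reads of all 3 were entered under both names. Each pair is 1 measurement.

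The members' mean summed share of counts was highest in long-projecting cells and lowest in the 2 chandelier types, where the deep chandelier animals differed from one another. Long-projecting animals had 3.83%, 3.77%, 4.04% and 4.12% of their counts in members, a mean of 3.94% ± 0.166 (SD, n = 4). CCK basket cells followed at 3.69% ± 0.756 (SD, n = 2), from 3.16% in animal 5 and 4.23% in animal 6, so the mean lies between unlike animals. The 6 astrocyte markers summed to 97.7 and 108 CPM in the libraries of animal 5 and to 514 and 147 CPM in libraries 3 and 4 of animal 6. Excitatory neuron markers summed to 84.2 and 228 CPM in animal 5 and to 351 and 290 CPM in animal 6, and Calb2 had 11.7 and 2.46 against 137 and 134 CPM. The part of these genes in the larger share of animal 6 was not tested. The member shares of libraries 3 and 4 were 4.19% and 4.26%.

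Martinotti cells had 3.11% ± 0.229 (SD, n = 2), interneuron-selective cells 3.06% ± 0.0812 (SD, n = 2), PV basket cells 2.91% ± 0.0673 (SD, n = 2) and upper chandelier cells 2.79% ± 0.0557 (SD, n = 2). Martinotti animals (3.27% and 2.95%) overlapped both interneuron-selective (3.12% and 3.00%) and PV basket replicates (2.87% and 2.96%), and libraries of all 4 types overlapped. Deep chandelier animals stood apart from one another, at 2.26% and 3.07% (mean 2.66% ± 0.571, SD, n = 2). Among libraries, all 9 of long-projecting cells lay between 3.72% and 4.18%, and outside this type only CCK basket libraries 3 and 4 reached that range. Without the 4 libraries with markers of another cell type, the interneuron-selective share was 2.86%, the upper chandelier share 2.73% and the deep chandelier share 2.78%, so the order of the 2 chandelier types turned. The balance of the subunits also varied. Large-subunit counts were 1.81 ± 0.108 times small-subunit counts in deep chandelier cells (SD, n = 2) and 1.51 ± 0.0372 times in long-projecting cells (SD, n = 4). The lowest mean was 1.11 ± 0.0854 times in interneuron-selective cells, next to 1.23 ± 0.0342 times in Martinotti cells (SD, n = 2 each). Interneuron-selective libraries 1 to 4 had 1.35, 1.07, 0.904 and 1.36 times, and library 3 is the oligodendrocyte-rich one. Animal 4 has only library 4 besides library 3, so the lowest place depends on library 3. In summed counts, fewer copies of these messages and more of all others cannot be told apart.

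**Figure D1:**
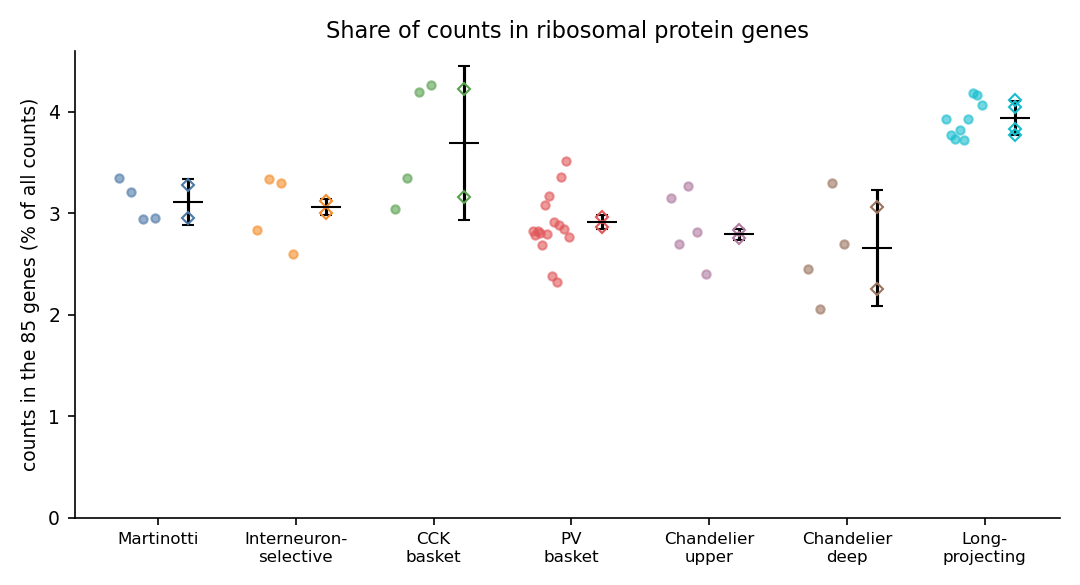
Share of each library's and replicate's counts held by the 85 members, in percent, by cell type. Long-projecting replicates lie between 3.77% and 4.12%, CCK basket and deep chandelier replicates are split, and the other types lie near 3%.

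Differences between types were common in this family. Counts summed per replicate were tested with edgeR's quasi-likelihood test over all 16 replicates, each type against the mean of the other 6, with p-values adjusted over 15533 genes by Benjamini and Hochberg. Of 83 members tested (Rpl39l and Rpl3l were too sparse), 53 differed among the 7 types at an adjusted p under 0.05, against 25.0% of all genes. They were 30 of 46 large-subunit genes, 19 of 31 small-subunit genes and 4 of 5 paralogs. Without the 4 libraries with markers of another cell type, 41 members were called. Leaving out long-projecting animal 16 gave 36 members, and leaving out deep chandelier animal 12 gave 71. With 2 animals in 6 of the types, these p-values measure the spread between few animals, which share drivers and runs. The smallest joint p-values belonged to Rpl29 (9.64e-05), Rps29 (0.000194), Rpl7 (0.000198), Rpl10 (0.000361) and Rpl13a (0.000462).

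**Figure D2:**
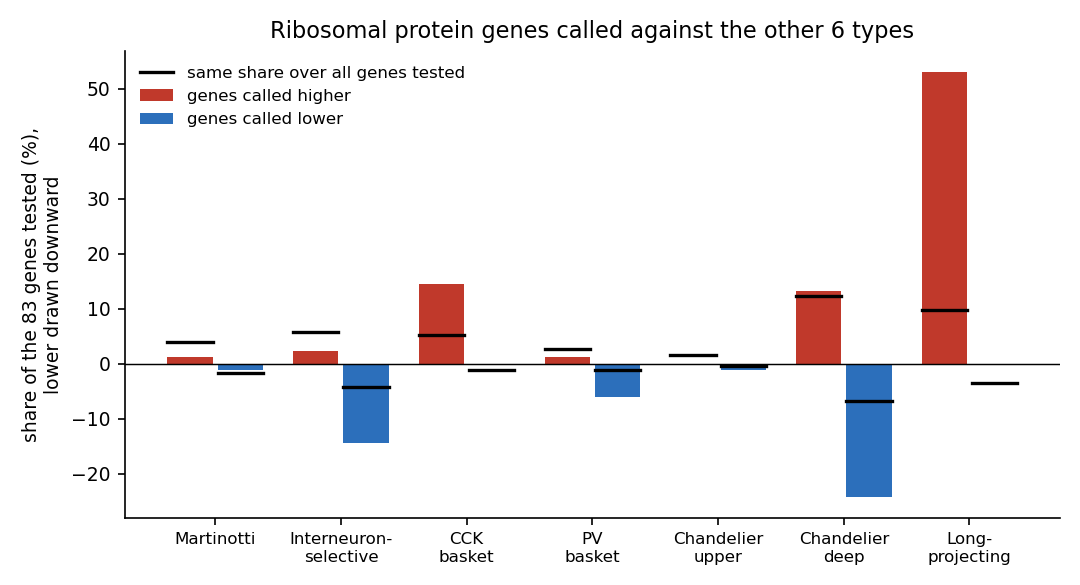
Share of the 83 tested members, in percent, called higher (up) or lower (down) in each type against the mean of the other 6. Calls are at an adjusted p under 0.05, and black lines give the same share over all genes tested. Long-projecting cells have 44 members higher and 0 lower (53.0% and 0%, against 9.71% and 3.40% of all genes). Deep chandelier cells have 11 higher and 20 lower (13.3% and 24.1%, against 12.3% and 6.79%).

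In long-projecting cells, 44 of 83 members were higher and 0 lower, against 9.71% and 3.40% of all genes. The 44 comprised 25 of the large subunit, 17 of the small subunit and 2 paralogs. The members' median log2 fold change was 0.67, beside 0.10 over all genes tested, and 78 of 83 were above 0. For 14 members every long-projecting animal lay above every other replicate, which held for 2.65% of all genes. At an unadjusted p under 0.05, 59 were higher and 1 lower, and DESeq2 called 45 higher and 1 lower. Leaving out animal 18 gave 26 members, animal 15 or 16 gave 28, and the 4 libraries with other markers 32.

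Rpl10, which joins the large subunit late and sits beside its catalytic centre, had 1002, 1060, 1170 and 1195 CPM in the 4 long-projecting animals. The other 12 replicates lay between 290 and 825 CPM, with a median of 583. The groups did not overlap, and the fit gave a log2 fold change of 1.08 (SE 0.12, adjusted p = 4.65e-05). Rpl35, a protein near the exit of the nascent chain, had 192, 183, 221 and 184 CPM, against 54.4 to 150 CPM elsewhere (median 106), again without overlap (log2 fold change 1.09, SE 0.16, adjusted p = 0.000497).

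The paralog Rpl22l1, which can replace Rpl22 in the large subunit, was nearly even across these animals. It had 338, 328, 325 and 324 CPM, and the other 12 replicates lay between 33.9 and 243 CPM with a median of 178. No other replicate reached these 4 animals (log2 fold change 1.31, SE 0.18, adjusted p = 0.000222). Rpl13a, a large-subunit protein also known for a regulatory role outside the ribosome, had 416, 388, 499 and 467 CPM and rose by 1.10 on the log2 scale (SE 0.17, adjusted p = 0.000581). Here the groups overlapped, since interneuron-selective animal 4 had 505 CPM and upper chandelier animal 13 had 424 CPM.

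The small subunit took part too. Rps27, whose reads are also listed under Gm9846, rose by 1.49 on the log2 scale (SE 0.27, adjusted p = 0.00192), and Rps28 by 1.41 (SE 0.24, adjusted p = 0.00134). Both were picked for mention after their values were seen. Rps6, the small-subunit protein phosphorylated downstream of mTOR, had 431, 463, 502 and 484 CPM in long-projecting cells and 233 to 403 CPM elsewhere. It rose by 0.79 (SE 0.16, adjusted p = 0.00363) without overlap.

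Upper chandelier cells gave the comparison with long-projecting cells on a shared flow cell. Of 83 members, 8 were lower and 0 higher in upper chandelier cells, against 2.02% and 2.06% of all genes. For 62 members both upper chandelier animals lay below all 4 long-projecting animals, which held for 16.4% of all genes. The median log2 fold change was -0.69 for members and -0.03 for all genes. Rpl10 had 511 and 478 CPM in upper chandelier cells and fell by 1.33 (SE 0.21, adjusted p = 0.00185). Rpl3, which lines the catalytic centre, had 408 and 382 CPM against 735, 763, 759 and 800 CPM, and fell by 1.12 (SE 0.23, adjusted p = 0.0116).

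The paralogs were among the lower members as well. Rpl36al, a near copy of Rpl36a, had 185 and 242 CPM against 371, 418, 395 and 507 CPM (log2 fold change -1.16, SE 0.25, adjusted p = 0.0182), and Rpl22l1 had 146 and 162 CPM (log2 fold change -1.26, SE 0.30, adjusted p = 0.0303). Neither pair of animals overlapped the long-projecting ones. The call count moved with single animals: it was 0 without upper chandelier animal 14, 1 without animal 13, 3, 2, 4 and 2 without long-projecting animals 15, 16, 17 and 18, and 3 without either PV basket replicate. It was 23 without deep chandelier animal 11 and 22 without animal 12, 4 without the 4 libraries, and 52 when the 2 types were fitted alone. At an unadjusted p under 0.05, 0 were higher and 44 lower, and DESeq2 called 0 higher and 23 lower. Only 1 upper chandelier replicate is left when the other is dropped, so the spread is then borrowed from the other types.

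**Figure D3:**
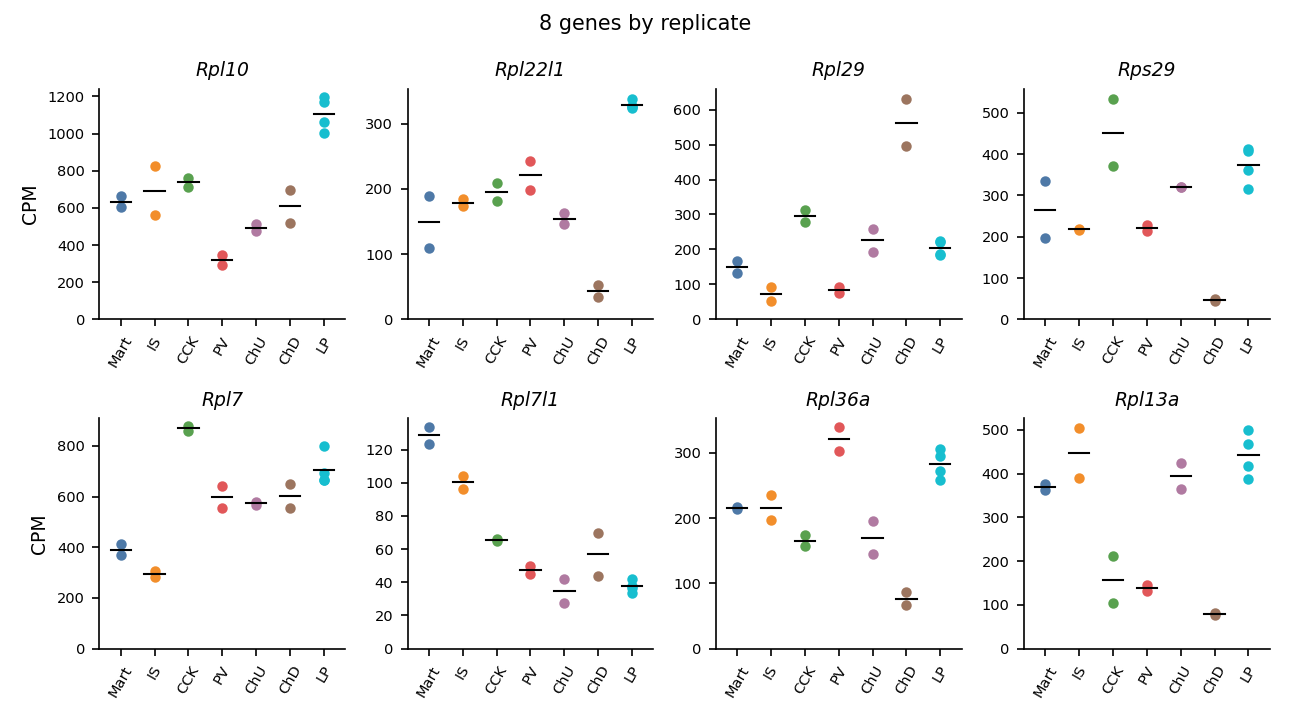
CPM of Rpl10, Rpl22l1, Rpl29, Rps29, Rpl7, Rpl7l1, Rpl36a and Rpl13a in each of the 16 replicates, by cell type (points, replicates; lines, type means). Rpl10 and Rpl22l1 are highest in long-projecting cells, Rpl29 is highest and Rps29 lowest in deep chandelier cells, and Rpl7l1 is highest in Martinotti cells.

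In deep chandelier cells the family moved in both directions. Of 83 members, 11 were higher and 20 lower, against 12.3% and 6.79% of all genes. The share that was higher was near the background. The 20 lower members were 10 of the large subunit, 9 of the small subunit and the paralog Rpl22l1, and for 22 members both animals lay below all other replicates, against 8.07% of all genes. Leaving out animal 11 gave 23 called members, animal 12 gave 41, and the 4 libraries gave 24 (12 higher, 12 lower). When limma voom was given a spread for each type, 7 members stayed higher and 0 lower, so each call of a lower member below rests on 1 spread for all types.

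Rpl29, a small basic protein of the large subunit, had 496 and 630 CPM in deep chandelier cells. The other 14 replicates lay between 53.2 and 312 CPM with a median of 185. It rose by 2.12 on the log2 scale (SE 0.20, adjusted p = 3.21e-05) without overlap. Rpl5, which carries a small ribosomal RNA into the large subunit together with Rpl11, had 685 and 738 CPM against 265 to 549 CPM, also without overlap (log2 fold change 1.14, SE 0.18, adjusted p = 0.00113). Its 3′ end shares no words with other genes.

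Rpl7a, a large-subunit protein, had 1239 and 1045 CPM, above the 502 to 929 CPM of the other replicates (log2 fold change 0.91, SE 0.16, adjusted p = 0.00175). Rpl3 had 1205 CPM in animal 11 and 742 CPM in animal 12. It rose by 1.26 (SE 0.17, adjusted p = 0.000379), but animal 12 lay within the long-projecting animals. Rplp0, the base of the stalk that recruits elongation factors, had 259 and 191 CPM and rose by 1.21 (SE 0.27, adjusted p = 0.00811). Upper chandelier animal 14, at 213 CPM, and CCK basket animal 6, at 193 CPM, overlapped it. Its partners Rplp1 and Rplp2 did not pass the test (log2 fold changes -0.40 and -0.60). Rplp2 had 91.7 CPM in animal 11 and 442 CPM in animal 12.

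Rps29, a zinc-binding protein of the small subunit, had 43.3 and 49.9 CPM in deep chandelier cells, where the other 14 replicates lay between 196 and 533 CPM with a median of 320. It fell by 2.43 on the log2 scale (SE 0.26, adjusted p = 9.1e-05). Rps24, also of the small subunit, had 102 and 183 CPM against 406 to 899 CPM, and fell by 1.90 (SE 0.24, adjusted p = 0.000263). Neither overlapped any other replicate.

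Rpl22l1, so high in long-projecting cells, had 52.9 and 33.9 CPM and fell by 1.93 (SE 0.29, adjusted p = 0.00082). With a spread for each type, the adjusted p was 0.057 for Rps29, 0.0559 for Rps24 and 0.0678 for Rpl22l1. Vip-rich library 4 belongs to animal 12. Both animals were low for each of these 3 genes.

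The direction in deep chandelier cells went with the length of the coding sequence, a property examined after the values were seen. The coding length of the GENCODE M21 principal transcript ran from 75 to 1257 bases over 84 members, with a median of 453. Over the 82 members tested, its Spearman's rho with the log2 fold change was 0.70 in deep chandelier cells, 0.72 within the large subunit and 0.65 within the small subunit. Over 14333 other genes, rho was 0.01. Among the 28 members with few shared words it was 0.73. It was -0.41 in long-projecting cells, -0.40 in PV basket cells, -0.31 in upper chandelier cells and between -0.15 and -0.08 in the other 3 types. Each of these types was compared with a mean that includes deep chandelier cells, so the negative values cannot be read as trends of their own. In the 2 pairs on a flow cell, which leave deep chandelier cells out, rho was 0.06 (upper chandelier against long-projecting) and 0.03 (Martinotti against interneuron-selective). Over other genes it was -0.18 in long-projecting cells. With the length of the whole transcript in place of the coding length, rho over the 82 members was 0.47 in deep chandelier cells. These are descriptions across genes of 1 set of libraries. Of 40 members above the median length, 11 were called higher and 4 lower in deep chandelier cells, and of 42 at or below it, 0 higher and 16 lower. The medians of the log2 fold change were 0.39 and -0.76, and it was -0.27 over 940 other genes of short coding sequence.

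**Figure D4:**
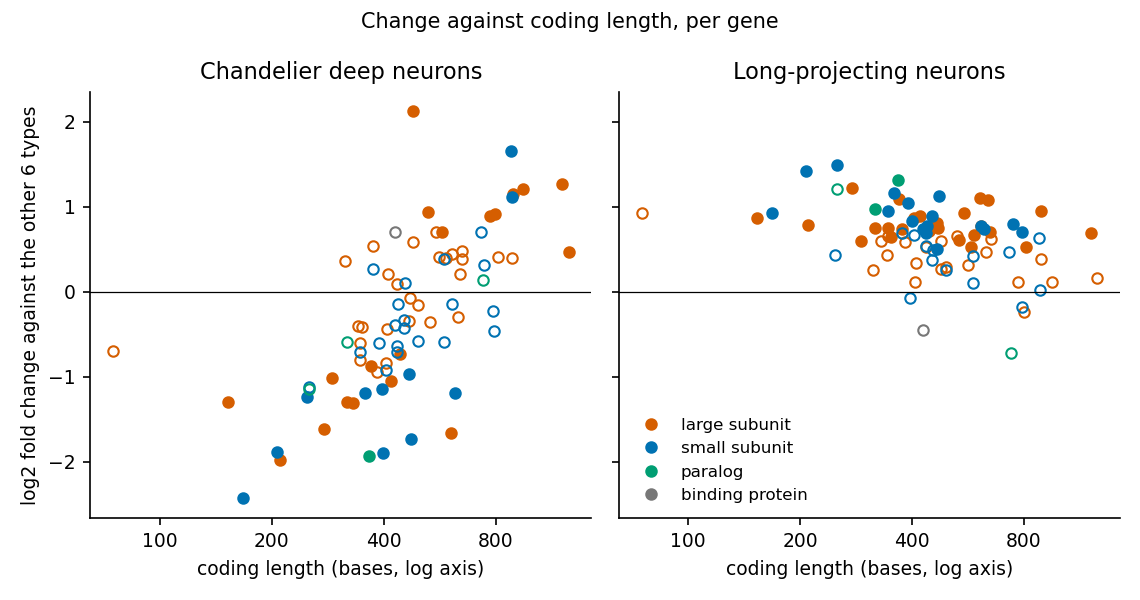
Log2 fold change of each tested member against its coding length in bases, in deep chandelier cells and in long-projecting cells, each against the mean of the other 6 types. Filled points have an adjusted p under 0.05. In deep chandelier cells the lower members are mostly short (rho 0.70), and in long-projecting cells nearly all members are above 0.

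The same could be read in single libraries. Members above the median length held 79.7%, 76.9%, 66.0% and 74.3% of member counts in the 4 deep chandelier libraries, and 49.5% to 61.7% in the other 42. Longer members together had 19369 ± 2399 CPM in deep chandelier cells (SD, n = 2) and shorter ones 7199 ± 3314 CPM (SD, n = 2). In long-projecting cells these sums were 21885 ± 575 and 17387 ± 1183 CPM (SD, n = 4), and in the other 5 types the shorter members had means of 12481 to 15259 CPM. So the low mean share in deep chandelier cells was in short members, though animal 12 by itself had 3.07% of its counts in members. Within replicates, coding length was also compared with a member's log2 level relative to its mean over the other 6 types. This rho was 0.73 in animal 11 and 0.49 in animal 12, and -0.46 to 0.04 in the other 14. For those 14 the mean includes deep chandelier cells, so their negative values cannot be read as trends of their own. Deep chandelier libraries were alone on their flow cell, so cell type and run cannot be told apart.

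**Figure D5:**
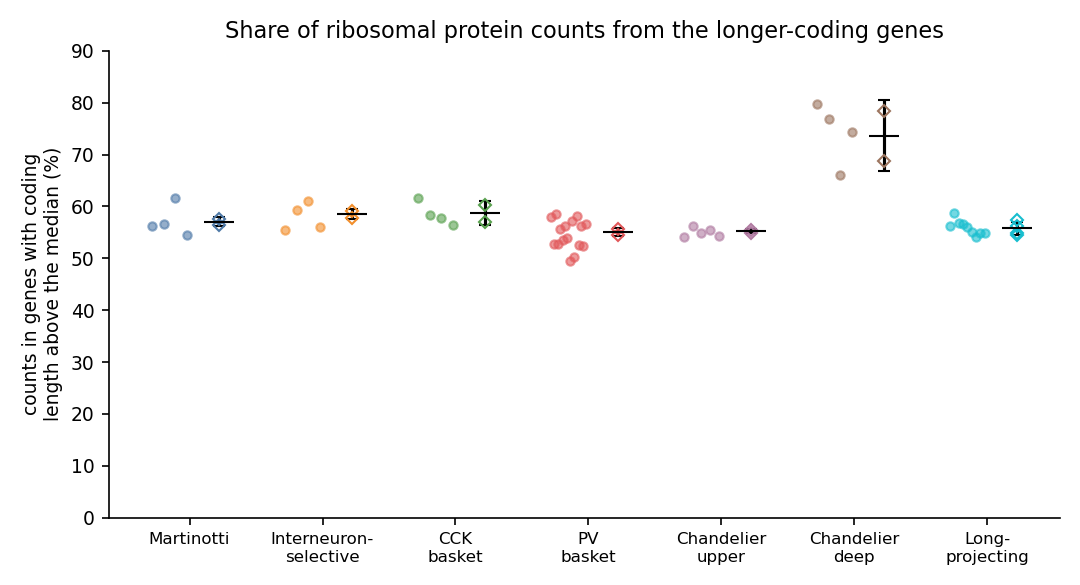
Percent of member counts held by the 41 members above the median coding length of 453 bases, by cell type (points, libraries; diamonds, replicates; bars, mean ± SD of replicates). The 4 deep chandelier libraries lie between 66.0% and 79.7%, and all others at or below 61.7%.

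In CCK basket cells, 12 of 83 members were higher and 0 lower, against 5.22% and 1.08% of all genes. The 12 were 7 of the large and 5 of the small subunit, and the median log2 fold change was 0.39, with 73 members above 0. At an unadjusted p under 0.05, 28 were higher and 1 lower, and DESeq2 called 18 higher and 0 lower. Rpl7 had 879 and 860 CPM, above the 281 to 800 CPM of the other 14 replicates, and rose by 0.87 (SE 0.13, adjusted p = 0.00169). Rps29 had 371 and 533 CPM and rose by 1.24 (SE 0.19, adjusted p = 0.00202), but animal 5 lay within the long-projecting range. Rpl37a had 306 and 443 CPM (log2 fold change 1.26, SE 0.29, adjusted p = 0.0207), and Rpl8 had 914 and 1478 CPM (log2 fold change 0.79, SE 0.17, adjusted p = 0.012). Both overlapped another type. For Rpl37a, animal 5 lay below the long-projecting animals, at 315 to 427 CPM. For Rpl8 it lay below both deep chandelier animals, at 968 and 1364 CPM.

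Most of these calls rested on animal 6, the one with the larger share. Without it 2 members were called, and Rps29, Rpl37a and Rpl8 had adjusted p-values of 0.0649, 0.267 and 0.385. Rpl7 kept its call in every setting tried. Rpl37a also lost its call without the 4 libraries (adjusted p = 0.0946). Leaving out deep chandelier animal 12 gave 24 members. There were 7 without upper chandelier animal 14 or PV animals 9 and 10, 6 without the 4 libraries, and 7 with a spread for each type.

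In interneuron-selective cells, 2 of 83 members were higher and 12 lower, against 5.73% and 4.29% of all genes. The lower ones were 10 of the large and 2 of the small subunit. The median log2 fold change was -0.34. Rpl7 had 281 and 304 CPM, below the 369 to 879 CPM of the other replicates, and fell by 1.27 (SE 0.16, adjusted p = 0.000403). Rpl8 had 485 and 500 CPM against 664 to 1478 CPM, and fell by 1.01 (SE 0.20, adjusted p = 0.00672). Both genes were separated from every other replicate.

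Rpl29 had 53.2 and 91.3 CPM and fell by 1.77 (SE 0.28, adjusted p = 0.00194), and the PV basket replicates, at 92.1 and 75.7 CPM, overlapped it. Rpl17 had 219 and 231 CPM against 277 to 832 CPM (log2 fold change -1.33, SE 0.29, adjusted p = 0.0133). Rpl13a went the other way, with 390 and 505 CPM (log2 fold change 0.81, SE 0.22, adjusted p = 0.0319), and overlapped upper chandelier and long-projecting cells.

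Rps3a, the member with the most counts in the table (not divided by length), had 2594 CPM in animal 3 and 3643 CPM in animal 4, above the 1013 to 2366 CPM of the others (log2 fold change 0.74, SE 0.19, adjusted p = 0.0273). The oligodendrocyte-rich library 3 belongs to animal 4. Without the 4 libraries the log2 fold change of Rps3a was 0.07 (adjusted p = 0.93), so the call ended. Without animal 4 the number of members called in this type was 3, without animal 3 it was 7, and without deep chandelier animal 11 it was 22. It was 8 without upper chandelier animal 14, 9 and 8 without PV animals 7 and 8 or 9 and 10, and 2 with a spread for each type, which kept neither Rpl8 (adjusted p = 0.0761), Rpl17 (0.0599) nor Rpl13a (0.117). Rpl17 lost its call without animal 3 or 4 (adjusted p = 0.105 and 0.0755), Rpl8 without animal 3 (0.0646) and Rps3a and Rpl13a without animal 4 (0.427 and 0.342), while Rpl7 and Rpl29 were called without either.

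In Martinotti cells 1 of 83 members was higher and 1 lower, against 3.91% and 1.69% of all genes, which is below the background. The member that was higher was Rpl7l1, a paralog of Rpl7 with a part in the making of the large subunit. It had 123 and 134 CPM, where the other 14 replicates had 27.3 to 104 CPM with a median of 44.4 (log2 fold change 1.21, SE 0.27, adjusted p = 0.0183). The groups did not overlap, and without animal 1 or 2 the adjusted p was 0.0886 or 0.124. Rpl7 itself was lower, with 369 and 411 CPM (log2 fold change -0.63, SE 0.15, adjusted p = 0.0264), though interneuron-selective cells were lower still. Without the 4 libraries the adjusted p of Rpl7 was 0.0553, so the call ended. Without either animal its adjusted p was 0.109 or 0.145. Leaving out deep chandelier animal 12 gave 7 members and animal 11 gave 5, and 1 member was called without Martinotti animal 2, long-projecting animal 17 or either PV basket replicate.

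On their shared flow cell, Martinotti and interneuron-selective cells differed in 0 of 83 members by edgeR, in either direction, against 1.68% higher and 1.41% lower of all genes. An unadjusted p under 0.05 was found for 12 members, and DESeq2 called 5. The median log2 fold change of members was 0.26, beside 0.00 for all genes. For 18 members both Martinotti animals lay above both interneuron-selective ones and for 12 below, against 17.5% and 20.4% of all genes. Rpl7l1, at 96.4 and 104 CPM in interneuron-selective cells, was the second highest there of the 7 types. Leaving out deep chandelier animal 11 or 12 gave 2 members, and 1 was called without interneuron-selective animal 4 or Martinotti animal 2.

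In PV basket cells 1 of 83 members was higher and 5 lower, against 2.78% and 1.11% of all genes. Rpl10 had 346 and 290 CPM, below the 478 to 1195 CPM of all other replicates, and fell by 1.15 (SE 0.19, adjusted p = 0.00383). Rpl3 had 284 and 348 CPM against 382 to 1205 CPM and fell by 0.93 (SE 0.21, adjusted p = 0.0224). Rpsa, the small-subunit protein also known as the laminin receptor, had 684 and 608 CPM against 754 to 2095 CPM, and fell by 0.94 (SE 0.23, adjusted p = 0.0351). All 3 were separated from the other types.

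Rpl29 had 92.1 and 75.7 CPM and fell by 1.35 (SE 0.27, adjusted p = 0.0124), in the range of interneuron-selective cells. Rpl36a was the member that was higher, with 302 and 340 CPM, and long-projecting animal 17, at 307 CPM, overlapped it (log2 fold change 0.84, SE 0.18, adjusted p = 0.0208). Without the 4 libraries its adjusted p was 0.1, and 4 members were called in this type. Without either PV basket replicate 0 members were called, and 3 without long-projecting animal 15. With the 18 labelled animals as replicates the count was 21, since the paired PV basket libraries then enter as separate animals, and with a spread for each type it was 23.

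In upper chandelier cells 0 of 83 members were called higher and 1 lower, against 1.56% and 0.341% of all genes. The median log2 fold change was -0.14. At an unadjusted p under 0.05, 2 were higher and 12 lower, and DESeq2 called 0 higher and 6 lower. The lower member was Rps4y2, a paralog of Rps4x, with 35.4 and 13.6 CPM against 44.0 to 366 CPM (log2 fold change -2.78, SE 0.66, adjusted p = 0.0476). The gap to the nearest replicate was small, and single libraries of other types held from 0 to 622 CPM. The call ended without any of 10 replicates in turn, without the 4 libraries (adjusted p = 0.212), and 4 members were called without deep chandelier animal 11 or 12. Leaving out upper chandelier animal 13 or 14, interneuron-selective animal 4, long-projecting animal 15, 16 or 18 or either PV basket replicate gave 0. The count was 2 or 3 without Martinotti or CCK basket animals, and 5 with a spread for each type or with 18 animals.

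Several members changed sign between types. Of the 83, 31 were called higher in one type and lower in another, against 11.4% of all genes, and 22 were called in none, against 61.6%. Rpl7, Rpl13a and Rpl29 were called in 4 types each, higher in 2 and lower in 2. Rpl13a had 76.9 and 80.4 CPM in deep chandelier cells, 105 and 211 in CCK basket cells and 132 and 145 in PV basket cells. In the other 4 types the animals had 361 to 505 CPM. It fell by 1.65 in deep chandelier cells and by 0.98 in PV basket cells.

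The paralogs were followed against the gene each resembles. Rpl22l1 counts were 2.94 ± 0.425 times those of Rpl22 in long-projecting cells (SD, n = 4) and 1.08 ± 0.139 times in deep chandelier cells (SD, n = 2). In interneuron-selective cells the ratio was 3.08 ± 1.46 (SD, n = 2), from animals at 2.04 and 4.11, so it cannot be placed apart from long-projecting cells. Rpl7l1 counts were 0.329 ± 0.00656 times those of Rpl7 in Martinotti cells and 0.342 ± 0.00125 times in interneuron-selective cells (SD, n = 2 each). In the other 5 types this ratio had means of 0.0531 to 0.0934, so the animals of these 2 types, both marked by CR-Cre and on 1 flow cell, lay above all others. Single libraries overlapped, from 0.115 to 0.667 in interneuron-selective cells and up to 0.235 in deep chandelier cells.

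Rpl36al counts were 2.03 ± 0.355 times those of Rpl36a in deep chandelier cells (SD, n = 2) and 0.995 ± 0.0465 times in PV basket cells (SD, n = 2). Rps27l, a paralog of Rps27, had 0.0658 ± 0.00536 times its counts in Martinotti cells and 0.350 ± 0.221 times in interneuron-selective cells (SD, n = 2 each). Ratios of counts between genes also carry their lengths, so only their changes between types can be read.

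Rpl39l, known from testis, had 86 counts in the whole series, all in Martinotti library 1 (31.8 CPM), where each of the 16 cells had a count. Library 2 of the same animal had none, nor had any library of another animal. A count of 0 allows up to 3 counts, or 0.143 to 0.968 CPM depending on the depth of the type, for counting error only. Rpl3l, a paralog of Rpl3 known from muscle, had 63 counts in 18 libraries, at most 9.47 CPM. No test was made on either.

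Rpl41, whose protein is among the shortest known, had 39.9 CPM in deep chandelier animal 11 and 449 CPM in animal 12, and did not pass the test there (log2 fold change -0.70, adjusted p = 0.356). PV basket replicates had 201 and 201 CPM, and all others outside the deep chandelier type 436 to 751 CPM.

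Other genes of translation were counted from lists for comparison. The shares of all genes called higher and lower, given above, were 9.71% and 3.40% in long-projecting cells, 12.3% and 6.79% in deep chandelier cells and 5.73% and 4.29% in interneuron-selective cells, and lists with counts near or under these shares show nothing apart from the background. Fau, which encodes a small-subunit protein fused to a ubiquitin-like one, rose by 0.77 in long-projecting cells (SE 0.19, adjusted p = 0.0147). Of 10 elongation factors, 4 were higher and 0 lower in long-projecting cells. They included Eef1a1, which brings transfer RNA to the ribosome (log2 fold change 0.77, SE 0.09, adjusted p = 4.92e-05), and Eef1g (0.81, SE 0.16, adjusted p = 0.00338). Eef1a1 fell by 1.52 on the log2 scale in upper chandelier cells against long-projecting cells (adjusted p = 4.05e-05), with means of 689 and 1756 CPM. Of 19 other genes whose messages are known for the oligopyrimidine start, 6 were higher and 0 lower in long-projecting cells (median log2 fold change 0.48), 0 and 3 in interneuron-selective cells (median -0.52), and 3 and 1 in deep chandelier cells (median 0.32). Tpt1, one of these genes, rose by 1.10 in long-projecting cells (SE 0.17, adjusted p = 0.000565). In the other types 1 or 2 of them were called.

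Mitochondrial ribosomal proteins, made for a separate ribosome, gave 2 higher and 0 lower of 76 in long-projecting cells (median log2 fold change 0.39), under the background of 9.71%. In interneuron-selective cells they gave 0 and 7 (median -0.59), with Mrpl49, Mrpl18 and Mrpl28 the clearest at -1.72, -2.03 and -2.03, and in deep chandelier cells 7 and 2 (median 0.12), under the background of 12.3% and 6.79%. Of 54 initiation factors tested, 13 were higher and 3 lower in deep chandelier cells, among them Eif3f (log2 fold change 1.81, SE 0.26, adjusted p = 0.000611) and Eif4g2 (mean 775 CPM against 356 CPM, adjusted p = 0.0019). In long-projecting cells 5 were higher and 1 lower. One initiation factor, Eif2s3y, is Y-linked and follows the labelled sex of the animals. Of 43 genes of ribosome biogenesis, 4 were higher and 4 lower in deep chandelier cells and 2 and 0 in long-projecting cells, near or under the background, where Npm1, a nucleolar chaperone, rose by 1.27 (SE 0.30, adjusted p = 0.0123). Of 24 genes of mTOR and Rps6 kinase signalling, 4 were higher and 1 lower in long-projecting cells, against 9.71% and 3.40% of all genes. In deep chandelier cells 3 were higher and 1 lower, near or under the background of 12.3% and 6.79%. Pdcd4, an inhibitor of the initiation helicase that this pathway removes, rose by 2.29 in deep chandelier cells (SE 0.23, adjusted p = 4.7e-05).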

How the data were processed

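Single neurons were amplified linearly in 2 rounds and made into polyA-based libraries with random tags, per the labels' protocols. The deposited values are expected counts, estimated counts per gene and cell that are mostly whole; the sources used here do not say whether they count reads or tags. Bowtie 0.12.7 and the mm9 build are named per the submitters' processing notes. Counts were summed over the cells of each replicate (1203737 to 12324142 counts) and rounded for the test; CPM are scaled to 1000000 counts in all. The test was edgeR 4.0.16 (TMM scaling, filterByExpr by type, robust quasi-likelihood fit, 9 residual degrees of freedom) in R 4.3.3. It was also run on simulated counts with a smaller spread than the real ones and with changes in long-projecting cells only. That run does not show how the test performs for types with 2 replicates. DESeq2 1.42.0 and limma 3.58.1 gave alternatives. Groups came from the labels. Start sites came from RefSeq (GRCm38.p6) and transcripts from GENCODE M21 (GRCm38), matched by symbol, since no mm9 annotation was used here. The text names members with the most and fewest counts, up to 12 by the joint test, up to 4 per direction and comparison by adjusted p, the paralogs, a few with special roles, and those with non-whole or equal rows. Some genes that this rule or the lists would name are not reported here. The members and gene lists were chosen with earlier results of these data known. Alternatives were each replicate left out, 18 labelled animals, other scalings, no filter, a spread for each type, a block by library number, and no library with markers of another cell type, the last added after seeing the data.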

Additional observations from a re-analysis of the deposited data

Results flagged for a closer look

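Among the 4 long-projecting animals, animal 17 stood away from the other 3 for a pair of members. Rpl30, whose row equals a pseudogene row, had 217 CPM there against 190 to 193 CPM, and Rpl39 had 178 CPM against 207 to 212 CPM. Of 59 sets of 4 to 10 values examined in this way, 2 were so far apart, and chance gives about 1 in 20.

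The pseudogene rows left out by the rule on symbols also held counts. Rpl34-ps1 had 25612 counts and its row differed from that of Rpl34 by 0.0195% of the counts, so the rows hold nearly the same reads. Rps15a-ps6 had 1732 counts, Rpl31-ps12 951, Rps19-ps3 736 and Rps15a-ps4 58. Whether these reads came from the pseudogene or the parent gene was not tested.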

How the results depend on the processing

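None of 34 named differences reversed in 820 alternative values; 739 stayed on their side of the threshold and 81 lost the call. Counts of members called moved by over 1.5 times as follows. DESeq2 gave 6 in Martinotti, 12 in PV basket and 6 in upper chandelier cells, 5 between Martinotti and interneuron-selective cells and 23 between upper chandelier and long-projecting cells. A spread for each type gave 1 (Martinotti), 2 (interneuron-selective), 7 (CCK basket), 23 (PV basket), 5 (upper chandelier), 7 (deep chandelier) and 43 (upper chandelier against long-projecting). The 18 labelled animals gave 21 (PV basket), 5 (upper chandelier), 2 (Martinotti against interneuron-selective) and 17 (upper chandelier against long-projecting). DESeq2's size factors in edgeR gave 3 and no filter gave 2 in upper chandelier cells. The pair on its flow cell alone gave 52. Without the 4 libraries the counts were 1 (Martinotti), 6 (CCK basket), 0 (upper chandelier) and 4 (upper chandelier against long-projecting), and the shares 2.86% (interneuron-selective) and 2.73% (upper chandelier). With whole-count members only the share was 2.82% in PV basket and 2.70% in upper chandelier cells, and the mean over cells was 2.88% in upper chandelier cells.

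Leaving out each replicate gave 36 to 71 members in the joint test, 1 to 7 for Martinotti, 3 to 22 for interneuron-selective, 2 to 24 for CCK basket, 0 to 9 for PV basket, 0 to 4 for upper chandelier, 23 to 41 for deep chandelier and 26 to 57 for long-projecting cells. It gave 0 to 2 for Martinotti against interneuron-selective cells and 0 to 23 for upper chandelier against long-projecting cells. Shares ran from 2.95% to 3.27%, 3.00% to 3.12%, 3.16% to 4.23%, 2.87% to 2.96%, 2.75% to 2.83%, 2.26% to 3.07% and 3.88% to 4.00% in the same order of types. Without PV animals 9 and 10 there were 8 (interneuron-selective), 7 (CCK basket), 1 (Martinotti), 0 (PV basket and upper chandelier) and 3 (upper chandelier against long-projecting). With 1 animal left in a type, its spread is assumed to be that of the others. Library numbers do not pair samples: the median correlation of deviations was -0.01 over 91 same-numbered pairs and 0.00 over 754 others. The replicate block by library number, with libraries as samples, gave 4 (Martinotti), 19 (CCK basket), 19 (PV basket), 4 (upper chandelier) and 2 (Martinotti against interneuron-selective). The cause of each change was not tested. The 2 animals in most types limit precision.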

Other observations

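Members rose and fell together across the 16 replicates only loosely. The median correlation of log2 CPM over all 3403 pairs of tested members was 0.36, and 79.1% of pairs were above 0. It was 0.61 between short members, 0.29 between long ones and 0.28 between a long and a short one. Without the deep chandelier animals (14 replicates) these medians were 0.40, 0.38 and 0.38. All pairs share the same libraries and scaling, so the values are descriptions.

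The values of a single cell usually included most of the family. The median Martinotti cell had a count in 82 members and the median interneuron-selective cell in 81. Their median counts per cell were 107782 and 42258. Within a library, however, the spread of member counts between cells was near the counting error (median 1.07 times). Rpl39l had a count in 16 cells, all of Martinotti library 1, which held 16 cells. Detection in a cell therefore cannot be told apart from detection in its library.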
